A study of Mus musculus with 8 samples.

Results

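The 34 genes described here encode proteins that bring fatty acids into the heart muscle cell, store them, carry them into mitochondria and oxidise them. They were taken by name from a list of uptake, storage, carnitine shuttle and beta-oxidation genes, with no use of measured values, and each matched 1 of the 55487 Ensembl identifiers that were counted. Left ventricles of C57BL/6 mice aged 12 weeks were measured by RNA-seq. The group CM-ADGRF5-KO (KO) carried the genotype label GPR116-/- (myocyte-specific), and the control group NLC was labelled wild-type. Each group held 4 animals, of which replicates 1 and 2 were male and replicates 3 and 4 were female. GPR116 is another name of ADGRF5, a receptor of the adhesion class that couples to G proteins, and the transgene or promoter that restricts its loss to myocytes is not given in the sources used here.

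Long-chain fatty acids are the main fuel of the adult ventricle. Lipoprotein lipase frees them from circulating triglyceride at the capillary wall, CD36 and binding proteins take them up, and acyl-CoA synthetases activate them. The carnitine shuttle moves the acyl groups across the mitochondrial membranes, where a repeating cycle of dehydrogenation, hydration, a further dehydrogenation and thiolysis shortens the chain, and electrons leave through flavoproteins to the respiratory chain. Many of these genes are known targets of the PPAR and ERR nuclear receptors.

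Between 26587475 and 39615408 reads per KO library and between 25328784 and 28347135 reads per NLC library were assigned to genes. The largest library was KO replicate 1, and mitochondrially encoded genes took 17.4% to 21.9% of gene reads. On the scale of CPM, which is read counts scaled to a common library size, Adgrf5 stood at 203.0 to 239.8 CPM in KO ventricles and at 218.2 to 257.0 CPM in NLC ventricles, with a log2 fold change of -0.05 (SE 0.0753, adjusted p = 0.782). Other cell types of the ventricle, endothelium among them, express this gene, so a myocyte-restricted loss was not checked by its level. In whole tissue, fewer cells of a type and less RNA per cell cannot be told apart.

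All 34 genes passed the filter on low counts, and the lowest count of any of them in any library was 96 reads. Together they took 1.88% ± 0.137 of gene reads in KO ventricles and 1.98% ± 0.0882 in NLC ventricles (SD, n = 4 each). The ranges of the groups overlapped, from 1.71% to 2.05% in KO and from 1.90% to 2.07% in NLC. On a scale of CPM divided by the kilobases of the transcript (RPKM), Fabp3 was the most abundant, with mean levels of 2353 RPKM in KO and 2253 RPKM in NLC. It was followed by Lpl, Acaa2, Acadvl, Acadm and Acadl, of which the last 3 lay close together at 501 to 580.1 RPKM in both groups. Acot1 and Angptl4 were among the least abundant, at 4.00 and 2.60 RPKM in KO and 5.62 and 3.12 RPKM in NLC. Cpt1b stood at 4.62 RPKM in KO and 3.79 RPKM in NLC, but its rank is not known, because reads it shares with an overlapping gene model may be uncounted.

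**Figure D1:**
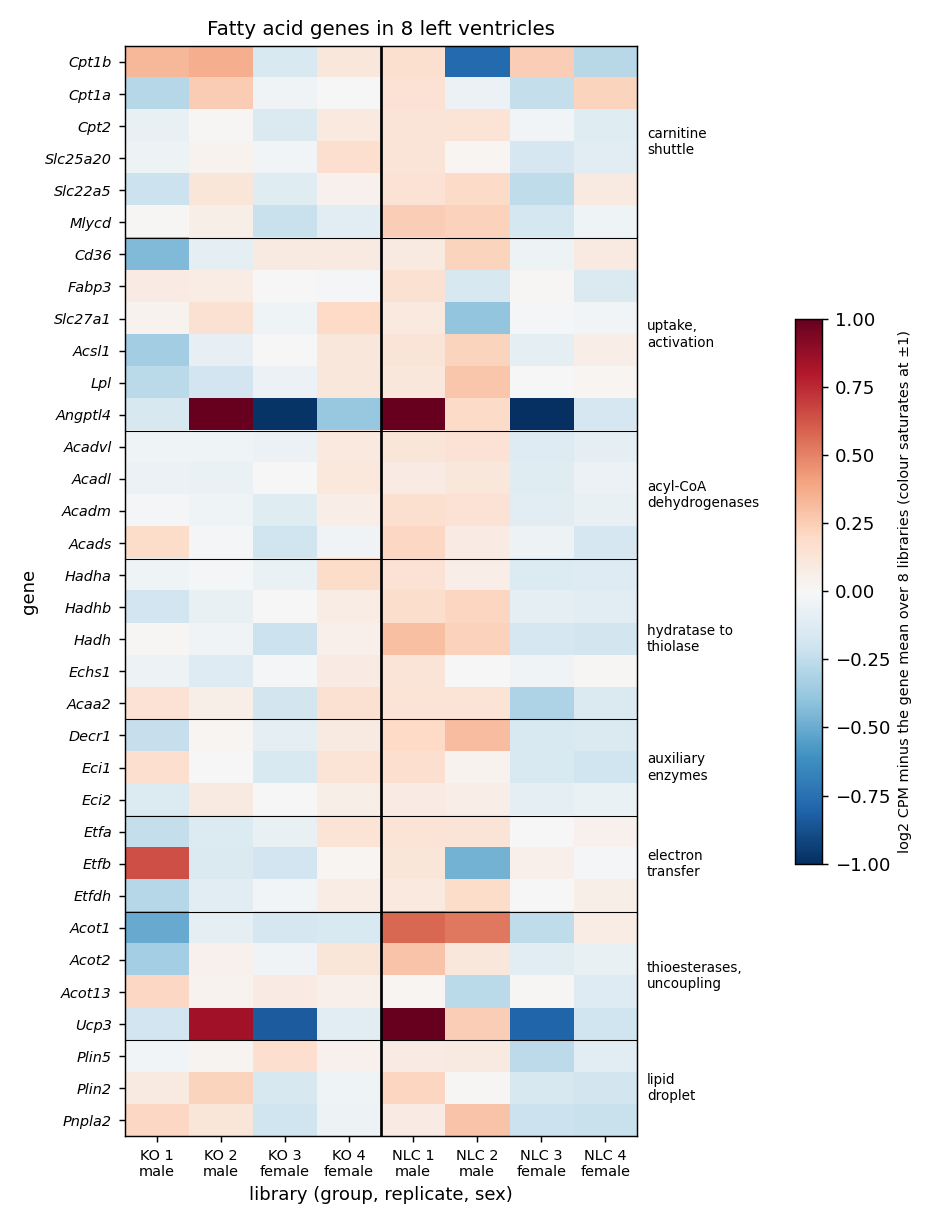
Log2 CPM of each of the 34 genes (rows, grouped by role) in the 8 ventricles (columns, KO left of NLC), minus the mean of the gene over all 8; red is above and blue below that mean. NLC replicates 1 and 2, the males, are mostly red, with a median deviation of 0.142 and 0.134, and NLC replicates 3 and 4 are mostly blue, at -0.115 and -0.101, while the KO columns lie between -0.068 and 0.074.

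None of the 34 genes passed the threshold in the comparison of KO with NLC, in which 15 of 14695 genes did (0.102%). The test was edgeR's quasi-likelihood test with sex as a term and Benjamini-Hochberg adjustment over all genes tested, with a threshold of 0.05. DESeq2 also called 0 of the 34 (1.02% of all genes), and edgeR with no filter on low counts called 1, Acot1 (2.22%). At an unadjusted p under 0.05, 1 gene was lower, Acot1 (6.18% of all genes), and 0 were higher (5.77%). A positive log2 value was seen for 13 genes (49.0% of all genes) and a negative value for 21, with a median of -0.045 for the 34 genes and -0.005 for all genes tested. Acot13 alone had all 4 KO values above all 4 NLC values (3.22% of all genes), and 0 genes had them all below (3.03%).

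The same data were then split by sex, because each group held 2 males and 2 females. Within males, 0 of the 34 genes passed the threshold (0.0408% of all genes), and 10 were lower in KO at an unadjusted p under 0.05, against 8.45% of all genes. These were Cd36, Acsl1, Lpl, Hadhb, Hadh, Decr1, Etfa, Etfdh, Acot1 and Acot2, and 0 were higher (9.01%). DESeq2 called 5 of them lower in KO males, namely Cd36, Acsl1, Lpl, Hadhb and Acot1 (2.14% of all genes). With no filter on low counts edgeR called 7 of the 34 in males (3.6%): Cd36, Acsl1, Lpl, Decr1 and Acot1 were lower in KO, and Cpt1b and Etfb were higher. Both male KO values lay below both male NLC values for 19 of the 34 genes (25.9% of all genes), and above them for 2, Cpt1b and Acot13 (25.1%). Within females, 0 passed the threshold in edgeR (0.0% of all genes) 0 in DESeq2 (0.116%) and 0 with no filter (0.991%). Plin5 was higher at an unadjusted p under 0.05 (2.14%), and 0 were lower (2.99%). Both female KO values lay above both female NLC values for 13 genes (17.1%) and below them for 0 (17.2%). The 13 were Slc25a20, Acadvl, Acadl, Hadha, Hadhb, Decr1, Eci1, Eci2, Acot2, Acot13, Plin5, Plin2 and Pnpla2.

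The median log2 fold change of the 34 genes was -0.163 within males and 0.068 within females, beside 0.011 and -0.011 for all genes tested. The female median was 0.001 without KO replicate 4 and 0.147 without KO replicate 3, and the male median ranged from -0.197 to -0.109 when 1 library was left out. Without KO replicate 1, the number lower in KO males at an unadjusted p under 0.05 was 3, with a range of 8 to 10 when any other library was left out. Library numbers in the labels place both male KO samples before both male NLC samples, so anything tied to that numbering and the genotype of male animals cannot be told apart. The labels do not say what the numbers follow.

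**Figure D2:**
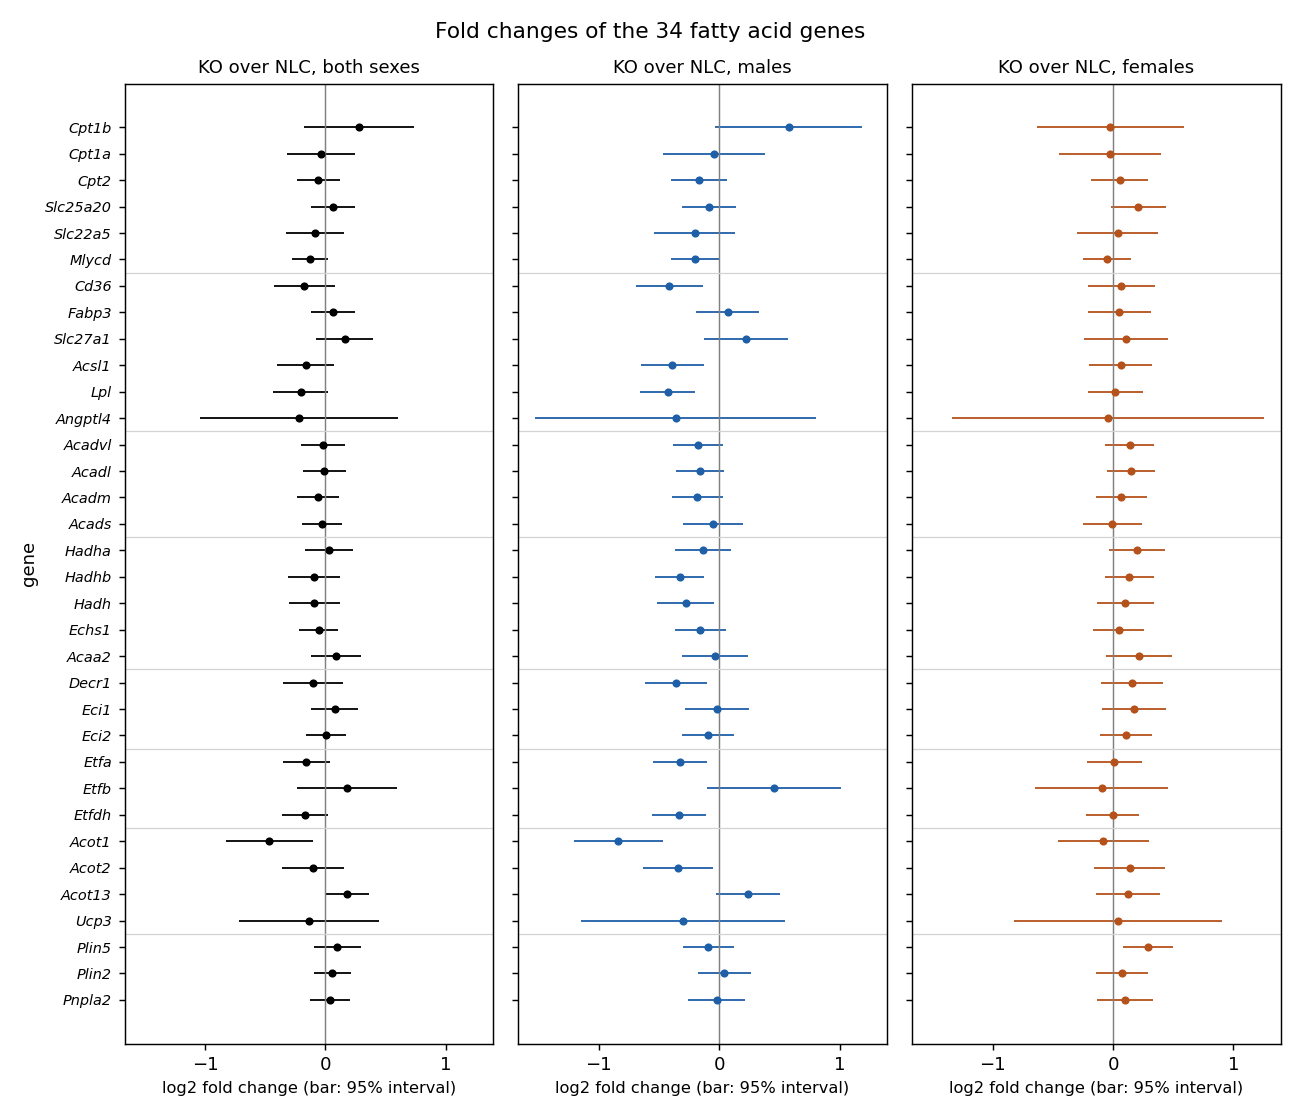
Log2 fold change of KO over NLC for each of the 34 genes in both sexes together (left), in males (middle) and in females (right), with bars for the 95% interval of edgeR's fit. In males 28 of the 34 points lie left of 0, and 6 lie right of it (51.4% of all genes), and in females 26 lie right of it (47.3%).

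The carnitine shuttle begins with carnitine palmitoyltransferase 1, which makes acylcarnitines at the outer mitochondrial membrane and is blocked by malonyl-CoA. Cpt1b, the muscle form (ENSMUSG00000078937, GRCm38 chr15:89416405-89425863, minus strand), had 14.9, 15.3, 10.6 and 12.8 CPM in KO replicates 1 to 4, against 13.2, 6.89, 14.0 and 9.75 CPM in NLC replicates 1 to 4. The lowest value was that of NLC replicate 2, and the groups overlapped. Its log2 fold change was 0.28 (SE 0.206, adjusted p = 0.576). The annotation GENCODE M21 places 2744 of its 3372 exon bases also in Gm44502, a gene model on the same strand with 0 reads in every library, and 93.0% of 50-base stretches of its transcript are shared with that model. Reads that fall on both models can be set aside as ambiguous, so the level of Cpt1b here is a lower limit of unknown depth.

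Cpt1a, the form that dominates in liver, had 48.2, 69.9, 57.4 and 58.4 CPM in KO ventricles and 65.0, 56.5, 49.8 and 68.4 CPM in NLC ventricles. The highest and the lowest value were both in KO males, and the log2 fold change was -0.04 (95% interval -0.318 to 0.246, adjusted p = 0.916). The ratio of Cpt1b to Cpt1a per kilobase averaged 0.347 ± 0.0790 in KO and 0.280 ± 0.107 in NLC (SD, n = 4 each). Since the level of Cpt1b is a lower limit, this ratio does not show which form is more abundant. An exact two-sided permutation test over the 70 assignments of libraries gave p = 0.257 (0.429 after adjustment over the 5 ratios tested). Cpt2, which rebuilds acyl-CoA inside the mitochondrion, ranged from 214 to 254 CPM in KO and from 218 to 261 CPM in NLC.

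Slc25a20, the carnitine and acylcarnitine carrier of the inner membrane, ranged from 161 to 187 CPM in KO and from 148 to 182 CPM in NLC. Slc22a5, the plasma membrane carnitine transporter, lay at 18.1 to 22.8 CPM in KO and 17.5 to 23.9 CPM in NLC, and 27.1% of its 50-base stretches also occur in Slc22a21, Slc22a4 or a pseudogene. Mlycd degrades malonyl-CoA and so relieves the block on carnitine palmitoyltransferase 1. It had 121, 125, 103 and 112 CPM in KO ventricles, against 142, 141, 107 and 117 CPM in NLC ventricles. Both male NLC values were the highest of the 8, and the log2 fold change was -0.13 (SE 0.0664, adjusted p = 0.459).

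At the entry of fatty acids, Lpl, lipoprotein lipase (chr8:68880491-68907448, plus strand), had 3207, 3395, 3709 and 4189.8 CPM in KO replicates 1 to 4, against 4187, 4699, 3869 and 3929 CPM in NLC replicates 1 to 4. The male KO values were the lowest pair of the 8 and the male NLC values included the highest, while in females the groups overlapped. Its log2 fold change was -0.43 in males (SE 0.101, adjusted p = 0.160) and 0.02 in females (SE 0.101, adjusted p = 0.995). The direct test of the difference between the sexes gave -0.45 (SE 0.143, adjusted p = 0.648).

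Cd36, the fatty acid translocase (chr5:17781690-17888801, minus strand), had 849, 1075, 1226 and 1226 CPM in KO ventricles and 1222, 1344, 1110.0 and 1227 CPM in NLC ventricles. KO replicate 1 was the lowest and the females overlapped. The log2 fold change was -0.42 in males (SE 0.124, adjusted p = 0.188) and 0.07 in females (SE 0.124, adjusted p = 0.981), and the male value was -0.26 without KO replicate 1. Acsl1, the main acyl-CoA synthetase of heart, also had its lowest value in KO replicate 1 and its highest in NLC replicate 2, with 732, 880.0, 929.6 and 1008 CPM in KO and 1022, 1088, 877 and 978 CPM in NLC. Its log2 fold change in males was -0.39 (SE 0.115, adjusted p = 0.188). By DESeq2 the adjusted p in males was 0.0102 for Lpl, 0.0415 for Cd36 and 0.0442 for Acsl1.

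Fabp3, the heart-type cytosolic fatty acid binding protein, had 2003, 1986, 1883 and 1873 CPM in KO and 2102, 1692, 1910.3 and 1714 CPM in NLC. The NLC values spread around the KO values, and the log2 fold change was 0.06 (95% interval -0.12 to 0.244). Fabp3 shares 37.3% of its 50-base stretches with other genes, Fabp3-ps1, Zcchc17 and Gm10570 among them, so part of its reads may be uncounted. Slc27a1, a fatty acid transport protein with acyl-CoA synthetase activity, ranged from 205 to 242 CPM in KO and from 160.4 to 226 CPM in NLC, and NLC replicate 2 was the lowest. Angptl4 encodes a secreted inhibitor of lipoprotein lipase that PPARs induce. Its values were 6.88, 17.7, 3.90 and 5.90 CPM in KO ventricles, against 22.5, 8.77, 3.24 and 6.85 CPM in NLC ventricles. The males of each genotype lay far apart, and the log2 fold change of KO over NLC had a 95% interval of -1.039 to 0.605.

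The acyl-CoA dehydrogenases open each round of beta-oxidation and differ in the chain length they accept. Acadvl, for very long chains, had 1207, 1207, 1198 and 1334 CPM in KO replicates 1 to 4, against 1350.4, 1377, 1138 and 1165 CPM in NLC replicates 1 to 4. Acadl, for long chains, had 933, 928, 974 and 1048 CPM in KO and 1027, 1050.5, 895 and 934 CPM in NLC. In both genes the male KO values lay below and the female KO values above those of NLC animals of their sex, with no overlap in either sex. The test of the difference between the sexes gave log2 values of -0.31 for Acadvl (SE 0.129) and -0.30 for Acadl (SE 0.125), both at an adjusted p of 0.648. The exons of Acadvl share 1151 bases with Dvl2 on the opposite strand, whose counts of 177 to 383 reads per library are small beside those of Acadvl.

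Acadm, for medium chains and the gene of the most common human beta-oxidation defect, had 1034, 1014, 963 and 1093 CPM in KO and 1168, 1158, 969 and 992 CPM in NLC. The male NLC values were the highest pair, and the log2 fold change of KO over NLC was -0.06 (95% interval -0.231 to 0.115). Acads, for short chains, had 266, 233, 204 and 229 CPM in KO, against 270.1, 248, 226 and 209 CPM in NLC. These values overlapped, with a log2 fold change of -0.03 (95% interval -0.197 to 0.139).

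Hadha and Hadhb encode the alpha and beta subunits of the mitochondrial trifunctional protein, which carries out the later steps for long chains. They lie head to head on chromosome 5, Hadha at chr5:30118304-30155162 on the minus strand and Hadhb at chr5:30155248-30184593 on the plus strand. The 85 bases between their annotated starts hold no annotated exon base. They are printed because both subunits start from this interval, on the plus strand of GRCm38 from the RefSeq promoter windows, with GGGCGG, the GC box bound by Sp factors, in capitals.
Hadha to Hadhb interval, chr5:30155163-30155247: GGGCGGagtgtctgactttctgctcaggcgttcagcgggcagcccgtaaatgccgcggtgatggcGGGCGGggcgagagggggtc

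Hadha had 1493, 1516, 1467 and 1743 CPM in KO replicates 1 to 4, against 1698, 1603, 1395 and 1400.4 CPM in NLC replicates 1 to 4. Hadhb had 628, 680.3, 715 and 755 CPM in KO and 808, 834, 673 and 666 CPM in NLC. For both subunits the KO values were below NLC in males and above NLC in females, with no overlap in either sex. In males the log2 fold change was -0.33 for Hadhb (SE 0.0905, adjusted p = 0.181) and -0.13 for Hadha (SE 0.103, adjusted p = 0.520). The difference between the sexes was -0.46 for Hadhb (SE 0.128, adjusted p = 0.648), the smallest p of the 34 genes in that test. The ratio of Hadha to Hadhb per kilobase averaged 1.14 ± 0.0717 in KO and 1.05 ± 0.0440 in NLC (SD, n = 4 each; exact two-sided permutation p = 0.114, adjusted p = 0.286). Hadhb shares 62.4% of its 50-base stretches with the pseudogenes Gm13910 and Gm9108, so part of its reads may be uncounted as multiply mapped.

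Hadh, the hydroxyacyl-CoA dehydrogenase for shorter chains, had 472, 457, 404 and 484 CPM in KO ventricles, against 577, 549, 416 and 412 CPM in NLC ventricles. The male NLC pair stood above the other 6 values, and the log2 fold change was -0.28 in males (SE 0.105, adjusted p = 0.240) and 0.10 in females (SE 0.106, adjusted p = 0.979). Acaa2, the thiolase of the inner mitochondrial compartment, had 1055, 998, 843 and 1061 CPM in KO and 1052, 1053.5, 773 and 867 CPM in NLC. Its log2 fold change over both sexes was 0.09 (95% interval -0.118 to 0.297). Echs1, the short-chain enoyl-CoA hydratase, ranged from 320.3 to 372 CPM in KO and from 342 to 384 CPM in NLC.

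Unsaturated fatty acids need extra enzymes before they can enter the cycle. Decr1, the dienoyl-CoA reductase, had 274, 327, 304 and 344 CPM in KO, against 371, 400.2, 289.5 and 291 CPM in NLC. It was below NLC in males and above NLC in females with no overlap in either sex, and the difference between the sexes was -0.52 on the log2 scale (SE 0.160, adjusted p = 0.648). The enoyl-CoA isomerases Eci1 and Eci2 overlapped between KO and NLC in males, and in females KO lay above NLC with no overlap. Eci1 ranged from 282 to 352 CPM in KO and from 273 to 351 CPM in NLC, and Eci2 from 126 to 148 CPM in KO and from 130.2 to 147 CPM in NLC.

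Electrons of the acyl-CoA dehydrogenases pass to the electron transfer flavoprotein, a dimer of ETFA and ETFB, and from there through the oxidoreductase ETFDH to ubiquinone. Etfa had 436, 468, 491 and 566 CPM in KO and 567, 565, 516 and 532 CPM in NLC. Etfdh had 553, 623, 661 and 707 CPM in KO and 719, 763, 672 and 702 CPM in NLC. For both genes the male KO values were the lowest pair of all 8 and the female groups overlapped. In males the log2 fold change was -0.32 for Etfa (SE 0.0998, adjusted p = 0.195) and -0.34 for Etfdh (SE 0.0988, adjusted p = 0.188).

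Etfb showed another order of samples. It had 104, 60.3, 58.2 and 67.6 CPM in KO ventricles, against 72.3, 47.9, 68.8 and 65.7 CPM in NLC ventricles, with KO replicate 1 far above the rest. The ratio of Etfa to Etfb per kilobase averaged 4.61 ± 1.30 in KO and 5.65 ± 1.28 in NLC (SD, n = 4 each), with an exact two-sided permutation p of 0.514 (adjusted p = 0.643). The exons of Etfb share 617 of 1164 bases with Gm45233, a same-strand model with 0 reads in every library, so its level too may be set low by ambiguous reads.

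Thioesterases split acyl-CoA into free fatty acid and coenzyme A. Acot1, the cytosolic form (ENSMUSG00000072949, chr12:84009490-84018371, plus strand), had 7.46, 9.96, 9.41 and 9.54 CPM in KO replicates 1 to 4, against 15.8, 15.3, 8.87 and 11.2 CPM in NLC replicates 1 to 4. The male NLC values stood apart at the top, and in females the groups overlapped. Over both sexes the log2 fold change was -0.46 (SE 0.163, adjusted p = 0.350). It was -0.84 in males (SE 0.164, adjusted p = 0.149) and -0.08 in females (SE 0.167, adjusted p = 0.981), and the difference between the sexes was -0.76 (SE 0.234, adjusted p = 0.648). DESeq2 gave an adjusted p of 0.00779 in males.

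Acot2, its mitochondrial paralog and neighbour at chr12:83987861-83993873, had 41.6, 54.2, 51.4 and 57.3 CPM in KO and 64.2, 56.9, 48.8 and 50.003 CPM in NLC. KO replicate 1 was the lowest, and KO was below NLC in males and above NLC in females with no overlap in either sex. The log2 fold change was -0.34 in males (SE 0.130, adjusted p = 0.242) and 0.14 in females (SE 0.130, adjusted p = 0.978). The male value was -0.16 without KO replicate 1 and -0.55 without KO replicate 2. Acot1 shares 33.6% and Acot2 27.7% of their 50-base stretches with each other and with other family members, so their counts are uncertain. The ratio of Acot1 to Acot2 per kilobase averaged 0.172 ± 0.00780 in KO and 0.222 ± 0.0356 in NLC (SD, n = 4 each), with an exact two-sided permutation p of 0.0857 (adjusted p = 0.286). The smallest p that this test allows is 0.0286.

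Acot13, a mitochondrial thioesterase of another fold, had 215, 191, 198 and 194 CPM in KO against 189, 155, 189 and 171 CPM in NLC. The lowest KO value lay just above the highest NLC value. Its log2 fold change was 0.18 (SE 0.0830, adjusted p = 0.422). Ucp3, the muscle uncoupling protein whose transcript rises with fatty acid supply, had 59.6, 121, 38.1 and 62.8 CPM in KO and 142, 80.7, 38.9 and 59.1 CPM in NLC. NLC replicate 1 and KO replicate 2 were the highest, and the 95% interval of the log2 fold change ran from -0.714 to 0.448.

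Around the lipid droplet, Plin5, the perilipin that couples droplets to mitochondria in oxidative muscle, had 139, 145, 159.6 and 146 CPM in KO ventricles, against 151, 151, 119 and 132 CPM in NLC ventricles. The female KO pair lay above the female NLC pair and the male KO pair below the male NLC pair. The log2 fold change was 0.29 in females (SE 0.0929, adjusted p = 0.969) and -0.09 in males (SE 0.0929, adjusted p = 0.636), and the difference between the sexes was -0.38 (SE 0.131, adjusted p = 0.648). Plin2, the general droplet coat, had 71.2, 78.1, 59.8 and 65.0 CPM in KO and 77.5, 67.3, 59.7 and 58.9 CPM in NLC. Pnpla2, adipose triglyceride lipase, had 533, 503, 403 and 446 CPM in KO and 489, 562, 399 and 396 CPM in NLC. Over both sexes these last genes overlapped between genotypes, with log2 fold changes of 0.06 (95% interval -0.092 to 0.21) and 0.04 (95% interval -0.129 to 0.203). The ratio of Plin5 to Plin2 per kilobase averaged 2.08 ± 0.348 in KO and 2.00 ± 0.150 in NLC (SD, n = 4 each; exact two-sided permutation p = 0.83).

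**Figure D3:**
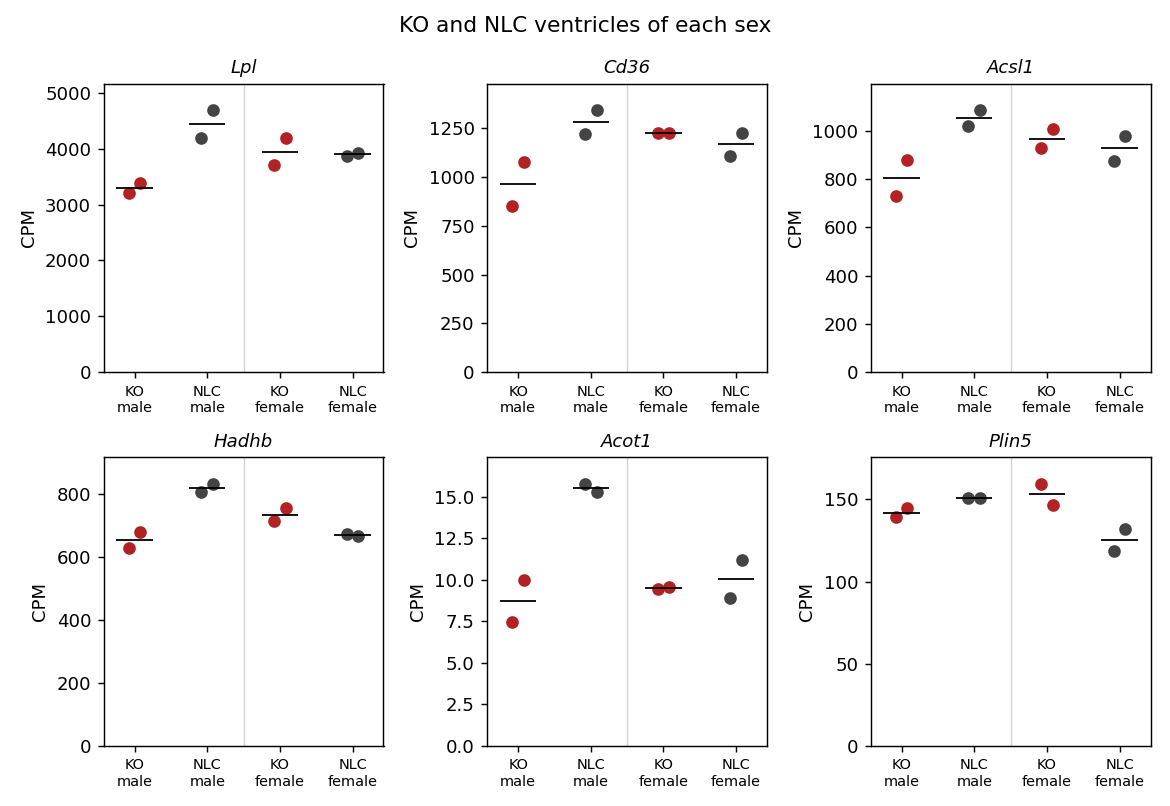
CPM of 6 genes in the 8 ventricles, split by sex, with KO in red left of NLC in grey; points are animals and lines are means of 2. In males the KO points lie below the NLC points for all 6 genes, and in females they overlap for Lpl, Cd36, Acsl1 and Acot1 and lie above NLC for Hadhb and Plin5.

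Whether the genotype difference itself differed between the sexes was tested for every gene. The difference passed the threshold for 0 of the 34 genes in edgeR (0.0% of all genes), 0 in DESeq2 (0.102%) and 0 with no filter (0.869%). At an unadjusted p under 0.05 it was negative, meaning a lower value of KO over NLC in males than in females, for 14 of the 34 (3.16% of all genes) and positive for 0 (4.29%). The 14 were Cd36, Acsl1, Lpl, Acadvl, Acadl, Hadha, Hadhb, Hadh, Decr1, Etfa, Etfdh, Acot1, Acot2 and Plin5, with log2 values from -0.76 to -0.30. The count was 4 without NLC replicate 3, 5 without KO replicate 4, 6 without KO replicate 1 or NLC replicate 2, and 8 without NLC replicate 1 or NLC replicate 4. KO was below NLC in males and above NLC in females, with no overlap in either, for 7 genes, namely Acadvl, Acadl, Hadha, Hadhb, Decr1, Acot2 and Plin5 (2.73% of all genes), and the opposite pattern held for 0 (2.94%). The difference was positive for 5 of the 34 genes (53.1% of all genes), and its median was -0.274 for the 34 genes and 0.022 for all genes tested. These genes are read from the same 8 libraries and are not independent of each other.

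By role, the median log2 fold change in males was -0.38 for uptake and activation, -0.32 for electron transfer and -0.32 for thioesterases and uncoupling. It was -0.17 for the acyl-CoA dehydrogenases, -0.16 for hydratase to thiolase and -0.13 for the carnitine shuttle. The auxiliary enzymes were at -0.09 and the droplet genes at -0.02. In females the same medians were 0.06, -0.01, 0.08, 0.10, 0.14, 0.01, 0.16 and 0.10. Within these roles 6 genes were positive in males, Cpt1b, Fabp3, Slc27a1, Etfb, Acot13 and Plin2 (51.4% of all genes). Each role holds 3 to 6 genes, and no test was run on these medians.

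Males were also compared with females over both genotypes. None of the 34 genes passed the threshold in edgeR (0.299% of all genes), and DESeq2 called 2, Mlycd and Pnpla2 (1.47% of all genes), and edgeR with no filter called 3, Angptl4, Ucp3 and Pnpla2 (2.65%). At an unadjusted p under 0.05, 8 were higher in males (6.79% of all genes) and 0 were lower (6.04%). These were Mlycd, Angptl4, Acads, Hadh, Acaa2, Ucp3, Plin2 and Pnpla2. The log2 difference was positive for 26 of the 34 genes (48.3% of all genes). The sexes lay apart in NLC and not in KO by the median log2 deviation of the 34 genes in each library. In NLC it was 0.142 and 0.134 in males and -0.115 and -0.101 in females. In KO it was -0.047 and 0.014 in males and -0.068 and 0.074 in females. The comparison over both genotypes averages these, so it is not separate from the difference between the sexes described above. All 4 male values lay above all 4 female values for 5 of the 34 genes, Mlycd, Angptl4, Acads, Plin2 and Pnpla2 (3.84% of all genes). The log2 difference of males over females was 1.48 for Angptl4 (SE 0.372, adjusted p = 0.188), 1.01 for Ucp3 (SE 0.262, adjusted p = 0.193), 0.35 for Pnpla2 (SE 0.0746, adjusted p = 0.115) and 0.27 for Mlycd (SE 0.0664, adjusted p = 0.177).

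Angptl4 and Ucp3 shared the order of their highest libraries, NLC replicate 1 and then KO replicate 2. Pdk4, a PPAR-induced kinase that restrains glucose oxidation and is not among the 34, had the same libraries on top, with 166, 288, 86.2 and 97.7 CPM in KO and 306, 202, 83.1 and 126 CPM in NLC. It was chosen for mention after its values were seen. Pdk4 passed the threshold for males over females, with a log2 difference of 1.29 (SE 0.193, adjusted p = 0.0264), and not for KO over NLC, with -0.17 (SE 0.193, adjusted p = 0.709). All 4 males were above all 4 females in Pdk4 and Angptl4, and in Ucp3 the female KO replicate 4, at 62.8 CPM, was above the male KO replicate 1, at 59.6 CPM.

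**Figure D4:**
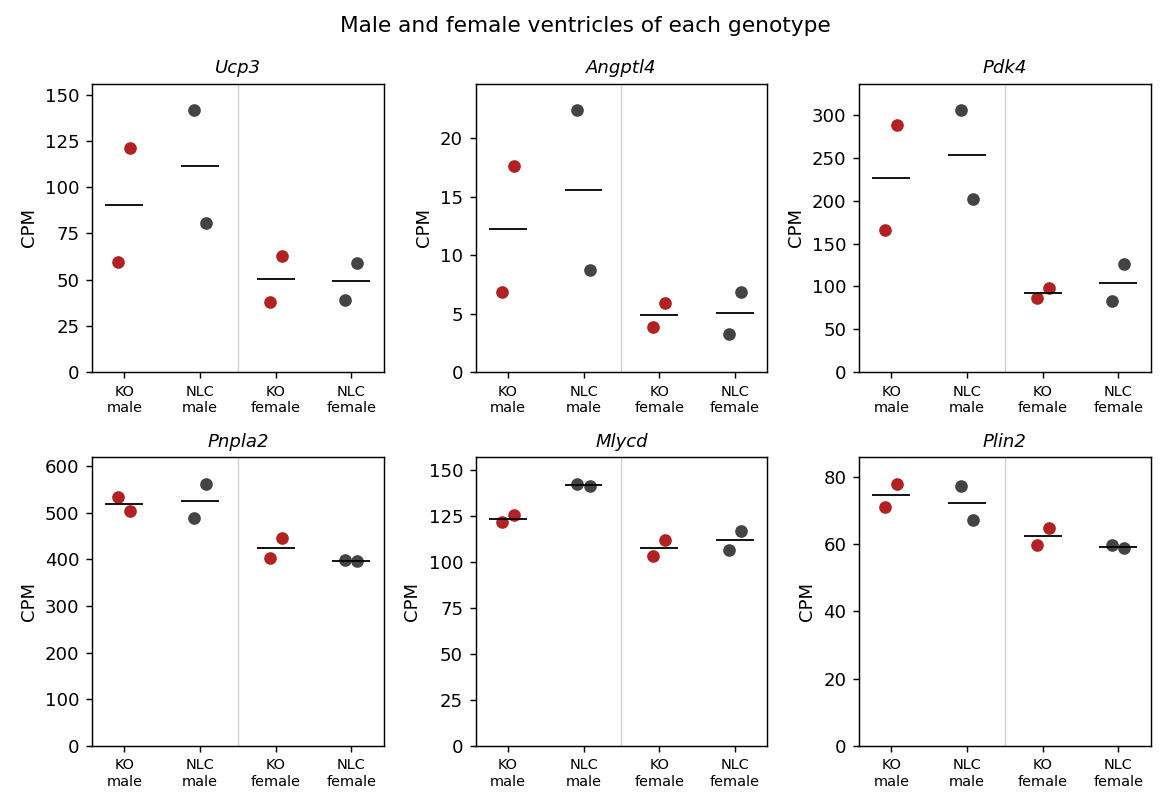
CPM of Ucp3, Angptl4, Pdk4, Pnpla2, Mlycd and Plin2 in males (left of the grey line) and females (right), with KO in red left of NLC in grey; points are animals and lines are means of 2. The male points of Ucp3, Angptl4 and Pdk4 spread widely within each genotype, and those of Pnpla2, Mlycd and Plin2 lie above the females.

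A further 84 genes of related function were read from the same fits, of which 77 passed the filter on low counts. None passed the threshold for KO over NLC in edgeR, with 7 higher (5.77% of all genes) and 8 lower (6.18%) at an unadjusted p under 0.05 and a median log2 fold change of -0.046. DESeq2 called 2 of them lower in KO, Vldlr and Acsm5 (1.02% of all genes in either direction). Vldlr, a lipoprotein receptor that works beside lipoprotein lipase, had 241, 266, 224 and 227 CPM in KO and 327, 350.3, 274 and 247 CPM in NLC. All KO values but that of replicate 2 lay below all NLC values, and the log2 fold change was -0.31 (SE 0.0766, adjusted p = 0.213 in edgeR and 0.0196 in DESeq2).

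Acsm5, a medium-chain acyl-CoA synthetase, had 2.83, 4.36, 1.16 and 1.09 CPM in KO and 5.14, 6.16, 2.73 and 2.18 CPM in NLC. It was lower in KO within each sex, with a log2 fold change of -0.86 (SE 0.194, adjusted p = 0.185 in edgeR and 0.0209 in DESeq2). It was also higher in males than in females, by 1.41 on the log2 scale (SE 0.195, adjusted p = 0.0174). Beside Acsm5 and Pdk4, the genes of these lists that passed the threshold for males over females (0.299% of all genes in either direction) were Acsl6, an acyl-CoA synthetase, at 0.76 (SE 0.108, adjusted p = 0.0206), and Agpat2, an acyltransferase of triglyceride synthesis, at 0.42 (SE 0.0696, adjusted p = 0.0420). Both were named after their values were seen, and no gene of these lists passed the threshold for females over males.

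At an unadjusted p under 0.05, which 5.77% of all genes passed as higher in KO and 6.18% as lower, the lists gave the following. Of the 18 peroxisomal oxidation genes measured, 2 were higher and 0 lower, Acox2 at a log2 fold change of 1.17 and Acot8 at 0.23, with Acox2 at 0.173 to 1.00 CPM over the 8 libraries. Of the 17 lipid droplet and triglyceride genes, 3 were higher, Cidea at 0.28, Dgat1 at 0.25 and Bscl2 at 0.20, and Lpin1 was lower at -0.26. Of the 14 activation, uptake and binding genes, Slc27a4 was higher at 0.20, and Vldlr, Acsl4 at -0.33 and Fabp5 at -0.25 were lower. Of the 18 other mitochondrial oxidation genes, Ucp2 was higher at 0.49, and Acsm5, Acadsb at -0.26 and Acat1 at -0.18 were lower. Of the 10 PPAR target and ketone genes, Oxct1, the enzyme that commits ketone bodies to oxidation, was lower at -0.28 (SE 0.0938, adjusted p = 0.338). It had 1145, 1126, 1296 and 1328 CPM in KO, against 1602, 1636, 1370 and 1361 CPM in NLC, with all 4 KO values below all 4 NLC values.

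Marker genes of other cell types were read beside these values. The 7 cardiomyocyte markers summed to 67383 to 80064 CPM in KO and 63116 to 76062 CPM in NLC. At an unadjusted p under 0.05, 1 of these 7, Tnnt2 at 0.18, was higher in KO over both sexes (5.77% of all genes) and 0 were lower (6.18%). In males 1 was lower, Ryr2 at -0.42 on the log2 scale (8.45%), and 0 were higher (9.01%). Ryr2 was at 0.01 in females, where 0 of the 7 were lower (2.99%) or higher (2.14%). The 8 endothelial markers, a cell type that shares Cd36 and holds lipoprotein lipase at its surface, summed to 1149 to 1332 CPM in KO and 1236 to 1513 CPM in NLC. At an unadjusted p under 0.05, 3 of these 8 were lower in KO over both sexes (Pecam1, Kdr and Emcn; 6.18% of all genes) and 0 were higher (5.77%). In males 3 were lower (Kdr, Emcn and Tek, with Kdr at -0.54 on the log2 scale; 8.45%) and 1 was higher at 0.48, Gpihbp1, the capillary anchor of lipoprotein lipase (9.01%). In females 2 were lower, Pecam1 at -0.25 and Emcn at -0.23 (2.99%), where Lpl and Cd36 had log2 fold changes of 0.02 and 0.07. Their part in the values of Lpl and Cd36 was not tested. The 8 adipocyte markers summed to 70.6 to 86.3 CPM in KO and 63.3 to 107 CPM in NLC, highest in NLC replicate 4. Of a separate list of 4 brown adipocyte markers, Ucp1 was at 18.9 CPM in that library and at most 0.150 CPM in any other. Elovl3 was at 0.311 CPM there and at most 0.0408 CPM in any other. Cidea, at 36.2 CPM, and Cox7a1, at 593 CPM, did not have their highest values in that library. At an unadjusted p under 0.05, 1 of the 2 brown adipocyte markers tested, Cidea, was higher in KO (5.77% of all genes) and 0 were lower (6.18%). Lipe, at 60.4 to 82.0 CPM and a log2 fold change of 0.03, made up most of each adipocyte sum. The log2 fold change was -1.67 for Adipoq, -1.53 for Cidec, -1.55 for Plin1 and -1.59 for Cfd. At an unadjusted p under 0.05, 0 of the 5 adipocyte markers tested were lower (6.18% of all genes) or higher (5.77%). The 5 atrial markers summed to 385 to 1480.2 CPM in KO and 399.9 to 6138 CPM in NLC, again highest in NLC replicate 4. Nppa made up most of each sum. At an unadjusted p under 0.05, 2 of these 5 were lower in KO over both sexes, Sln and Myl4 (6.18%). Over both sexes 0 were higher (5.77%), and in males 0 were lower (8.45%) or higher (9.01%). Both male KO values lay below both male NLC values for Sln, Myl4 and Myl7 (25.9% of all genes), with log2 fold changes of -4.99, -3.795 and -4.52. In females the groups overlapped for these genes, with log2 fold changes of -2.69, -2.35 and -2.36. In males Nppa was at 1.02 and Stard10 at -0.26, and in females they were at -1.60 and -1.14. The part of these atrial markers in the values of either sex was not tested. Fibroblast, macrophage, skeletal muscle and erythrocyte markers were also read. Over both sexes, 2 of the 4 skeletal muscle markers tested were higher in KO at an unadjusted p under 0.05 (5.77%). These were Tnnt3 at 0.73 and Mylpf at 0.71, and 0 were lower (6.18%). The other 3 lists had 0 higher or lower. For males over females, 1 of the 4 macrophage markers passed the threshold, Csf1r at 0.43 (0.299% of all genes).

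Promoter windows of 250 bases before to 50 bases after a RefSeq start were available on GRCm38 for 28 of the 34 genes. The exact direct repeat of AGGTCA with 1 base between the copies, the element of PPAR and RXR dimers, was searched on both strands and found in 0 of the 28 (0.04% of all 32851 windows), and with up to 1 mismatch again in 0 (0.554%). The ERR element TCAAGGTCA was found in 0 (0.423%). The single hexamer AGGTCA, a part of both motifs, was searched after these results were seen. It occurred in 8 of the 28 genes, Acadm, Acadvl, Cd36, Cpt1a, Echs1, Plin2, Plin5 and Ucp3. Counted by window, it occurred in 9 of the 32 windows of the 28 genes (16.3% of all windows). Also searched after the data were seen were GGGCGG and TNAAGGTCA, a looser form of the ERR element. GGGCGG occurred in 21 of the 28 genes and in 23 of the 32 windows (35.7% of all windows). TNAAGGTCA occurred in 0 of the 32 windows (1.28% of all windows). Elements outside these windows were not searched.

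The stretches around the hexamer are shown for 5 genes with an unadjusted p under 0.05 for males over females or for the difference between the sexes, on the strand of each gene, with AGGTCA or its reverse complement TGACCT in capitals. The matches lie 149 and 44 bases before the RefSeq start of Ucp3, 228 before that of Cd36, 87 before that of Acadvl, 170 before that of Plin5 and 218 before that of Plin2. The RefSeq start used for Cd36 is not its outermost start in GENCODE M21. The Cd36 stretch therefore lies inside the gene as annotated there, at chr5:17781690-17888801.
Ucp3, chr7:100472827-100472862, plus strand: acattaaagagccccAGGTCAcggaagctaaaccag
Ucp3, chr7:100472932-100472967, plus strand: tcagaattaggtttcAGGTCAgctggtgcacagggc
Cd36, chr5:17836104-17836139, minus strand: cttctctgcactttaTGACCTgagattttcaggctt
Acadvl, chr11:70015495-70015530, minus strand: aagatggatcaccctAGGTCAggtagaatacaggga
Plin5, chr17:56117698-56117733, minus strand: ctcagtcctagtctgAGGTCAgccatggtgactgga
Plin2, chr4:86670257-86670292, minus strand: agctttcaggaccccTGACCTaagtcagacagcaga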

How the data were processed

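Polyadenylated RNA of 8 left ventricles was sequenced as stranded libraries, per the labels' protocols. The deposited files give, for each library, whole-number counts of reads by gene. STAR, HTSeq and DESeq2 were named with GRCm38, per the submitters' processing notes, without versions. The annotation release and strand setting of the counting were also not given in the sources used here. Summary entries that name no gene stayed out of library sizes. Multiply mapped reads made up 16.8% to 20.3% of the tallied reads, reads outside genes 3.07% to 4.08% and ambiguous reads 1.26% to 1.38%.

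Symbols and positions came from GENCODE M21. In R 4.3.3, edgeR 4.0.16 was run on the counts: filterByExpr by genotype left 14695 genes, libraries were scaled by TMM factors, and quasi-likelihood tests used sex as a term or 1 mean for each sex and genotype. The threshold was 0.05 after Benjamini-Hochberg adjustment over all genes tested. CPM uses the TMM-scaled library size, and RPKM divides it by the kilobases of the longest coding transcript. Intervals are 95% intervals of the fit. Ratios were compared by exact permutation tests. A count of 0 allows up to 0.0757 to 0.118 CPM on library sizes without TMM scaling (3 counts per library, counting error only).

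All 34 genes are named. Values in every library are given for those with an unadjusted p under 0.05 for KO over NLC, for the difference between the sexes or for males over females, for the 6 of highest RPKM, and for Cpt1b, Cpt1a, Cd36 and Lpl. Of each related list, up to 4 genes of smallest p were eligible. Apart from the 34, which were taken by name, the genes and lists were chosen with earlier results of these data known. Nnt was not used, as its symbol stands on 2 identifiers. The fits were tested on simulated data. Replicates differed by more than counting noise, so none was merged. Alternatives were DESeq2 1.42.0, limma 3.58.1 (voom), other size factors, counts without the mitochondrially encoded genes, either no filter or at least 1 CPM in 4 libraries, no sex term, a replicate block and each library left out in turn.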

Additional observations from a re-analysis of the deposited data

Results flagged for a closer look

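Of 80 groups of 4 values examined (each gene, ratio and the summed level in each genotype), 4 had a sample far from the other 3, where chance gives about 1 in 20. Acadvl stood at 1334 CPM in KO replicate 4, against 1198 to 1207 CPM in the other KO ventricles. The ratio of Etfa to Etfb per kilobase was 2.68 in KO replicate 1, where Etfb was highest, against 4.98 to 5.41 in the other KO ventricles. The same ratio was 7.56 in NLC replicate 2, where Etfb was lowest, against 4.81 to 5.20 in the other NLC ventricles. The ratio of Hadha to Hadhb was 0.981 in NLC replicate 2, against 1.06 to 1.07 in the other NLC ventricles.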

How the results depend on the processing

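In KO against NLC the count of called genes among all tested was 15, with 150 by DESeq2, 621 with no filter on low counts, 6 with no sex term and 0 to 50 when 1 library was left out (0 without NLC replicate 1 or 2 or KO replicate 2 or 3, 4 without KO replicate 1 or 4, 50 without NLC replicate 3). With no filter, 1 of the 34 genes was called, Acot1 (adjusted p = 0.00983), and 7 related genes, against 2 related genes by DESeq2. Within males 5 of the 34 were called by DESeq2 and 7 with no filter (3.6% of all genes), and for males over females 2 by DESeq2 and 3 with no filter (2.65%). The cause of these differences was not tested. Numbers shared by KO and NLC animals were not used as pairs in the main fit. The deviations of same-numbered animals from their group means correlated at 0.246, 0.094, -0.208 and 0.087. Not every library correlated best with its own number. Sex stayed in these deviations, so the correlations cannot settle whether the animals were paired. With a replicate block the fit called 0 genes in all. No block could be fitted for males over females, since sex is constant within a number.

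The median log2 fold change of the 34 genes, -0.045, ranged from -0.089 to 0.016 (without KO replicate 1) when 1 library was left out. That of the ratio of Plin5 to Plin2 ranged from -0.062 (without KO replicate 3) to 0.114. For 17 genes, none called, the sign turned when 1 library was left out. The ranges were -0.006 to 0.129 for Acaa2, -0.058 to 0.027 for Acadl, -0.068 to 0.01 for Acads, -0.083 to 0.013 for Acadvl, -0.18 to 0.019 for Acot2, -0.521 to 0.174 for Angptl4, -0.152 to 0.064 for Cpt1a, -0.186 to 0.002 for Decr1, -0.00045 to 0.129 for Eci1, -0.024 to 0.07 for Eci2, -0.056 to 0.28 for Etfb, -0.002 to 0.124 for Fabp3, -0.052 to 0.08 for Hadha, -0.005 to 0.088 for Pnpla2, -0.173 to 0.003 for Slc22a5, -0.007 to 0.113 for Slc25a20 and -0.329 to 0.089 for Ucp3. Each sex and genotype holds 2 animals, which limits every comparison within a sex.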
